A study of Mus musculus with 12 samples.

Results

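This account covers 10 complement genes in RNA of the cells labelled tumor-associated macrophages from mouse melanomas. They were taken as a named set and not by a cut on their values, though with earlier results of these data known. They are 10 of the 34989 genes with a measured transcript. C1qa, C1qb and C1qc encode the chains of C1q, C4b and C2 the parts of the classical convertase, and C3 the central component. Cfb and Cfp encode factor B and properdin of the alternative pathway, and C3ar1 and C5ar1 the receptors of the fragments C3a and C5a. There were 4 groups of 3 libraries. The combination mice received PLX6134, labelled CSF1Ri (the usual short form for a CSF1 receptor inhibitor), at 600 mg per kg of chow, together with FGK4.5, an antibody that activates CD40, at 10 mg/kg every 3 days for up to 10 doses. CSF1Ri mice received that chow without the antibody, CD40 agonist mice received the antibody with normal chow, and Control mice received neither agent. PBS was the vehicle. All mice carried the same engineered melanoma model, in which Cre acts from a melanocyte promoter after local induction, and all were age-matched within an experiment. Treatment began 30 days after induction, at a total tumor volume under 100 mm3, and ran for 30 days or until a tumor reached 2 cm3. Each library came from at least 3 pooled tumors, so the p-values below measure the spread between pooled samples.

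Complement is a protein cascade that tags targets and recruits phagocytes. C1q opens the classical pathway by binding antibody complexes or dying cells, after which C4 and C2 form the enzyme that cleaves C3. The alternative pathway amplifies that cleavage through factor B and is held together by properdin. The small fragments released act on C3ar1 and C5ar1, which are carried by myeloid cells. Tissue macrophages are a main source of C1q, whereas most circulating complement is made in the liver.

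Estimated counts per library summed to 34168389 to 39818657 in the combination, 26665394 to 32880763 with CSF1Ri, 26316328 to 33948213 with the CD40 agonist and 28709482 to 31698533 in Control. All 14 macrophage markers of a set list were present in every group. Their TPM (transcripts per 1000000, a level corrected for length) summed to 13200 to 31500 in the combination, 25100 to 26700 with CSF1Ri, 16100 to 19500 with the CD40 agonist and 18600 to 21800 in Control. The mean log2(TPM + 1) of the same markers, which weighs them equally, gave another order, at 6.16 to 6.84 in the combination, 6.31 to 6.61 with CSF1Ri, 6.82 to 7.22 with the CD40 agonist and 6.85 to 6.94 in Control. Every CSF1Ri library was thus above Control by the sum and below it by the mean log2, and combination replicate 2 was highest by the sum and lowest by the mean log2. Between CSF1Ri and Control, 9 of the 14 markers had a difference below 0, with a median of -0.33, and edgeR called none. No sorting gate is given in the sources used here, and in bulk RNA fewer cells of a type and less RNA per cell cannot be told apart. On principal components of all tested genes, 3 libraries stood apart from their groups. Combination replicate 2 lay at -105.8 on the second component, against -55.6 and -32.5 for the others of its group. CSF1Ri replicate 3 lay at 32.7 on that component, against -22.2 and -24, and CD40 agonist replicate 1 lay at -116.4 on the third component, against -12.8 and 3.7. Where leaving out one of these libraries changed a call or much of a value, both values are given. The libraries were singled out from these same data, so a lower adjusted p without them is no independent support.

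The genes fall into clusters on the genome (GRCm38, GENCODE M21 gene spans, 1-based). C1qb (136880129 to 136886187), C1qc (136889804 to 136893065) and C1qa (136895917 to 136898803) lie side by side on the minus strand of chromosome 4, within 18675 bases. Cfb (34856374 to 34862518) and C2 (34862604 to 34898265) are 85 bases apart on the minus strand of chromosome 17, and C4b (34728380 to 34743882) lies 112491 bases from Cfb on the same strand. C3 (57203970 to 57228136) is farther along chromosome 17, Cfp (20925454 to 20931555) is on chromosome X, C3ar1 (122847138 to 122856161) on chromosome 6 and C5ar1 (16246743 to 16259540) on chromosome 7. RefSeq promoter sequences (GRCm38.p6) matched 6 of the 10 genes, namely C1qb, C1qc, C3, Cfp, C3ar1 and C5ar1. The 250 bases before the start are printed for C1qb, the most abundant C1q chain, for C3, the central component, and for Cfp, the member called between the combination and Control. All 3 are written 5′ to 3′ on the minus strand, at chr4:136886201-136886450 for C1qb, chr17:57228137-57228386 for C3 and chrX:20931556-20931805 for Cfp, and capitals mark a motif match.
C1qb: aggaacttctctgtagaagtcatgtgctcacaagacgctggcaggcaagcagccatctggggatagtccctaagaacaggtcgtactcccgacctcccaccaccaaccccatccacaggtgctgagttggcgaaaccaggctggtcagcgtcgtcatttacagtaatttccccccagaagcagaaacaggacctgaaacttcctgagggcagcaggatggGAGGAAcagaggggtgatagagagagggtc
C3: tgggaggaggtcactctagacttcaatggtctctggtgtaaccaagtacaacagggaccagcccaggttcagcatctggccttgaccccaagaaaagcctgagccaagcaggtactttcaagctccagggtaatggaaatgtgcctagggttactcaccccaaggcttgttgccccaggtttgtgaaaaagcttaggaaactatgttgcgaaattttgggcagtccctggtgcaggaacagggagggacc
Cfp: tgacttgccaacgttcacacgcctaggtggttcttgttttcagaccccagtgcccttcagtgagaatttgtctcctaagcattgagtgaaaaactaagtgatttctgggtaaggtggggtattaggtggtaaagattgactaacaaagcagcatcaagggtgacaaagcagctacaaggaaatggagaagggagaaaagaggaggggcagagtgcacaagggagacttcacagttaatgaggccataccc
Each of 4 letter patterns was searched on both strands. GAGGAA, the core bound by PU.1-type factors, was found once before C1qb, 30 bases from the start, and once before C1qc, 193 bases from the start, and 23.3% of 32851 windows of the same length hold it. GAAANNGAA, an IRF-like pattern, was found once, before C5ar1, and is in 7.13% of windows. TTCNNNGAA, the GAS pattern of STAT factors (7.02% of windows), and GGGNNTTCC, a kB-like pattern (4.98%), were found before none of the 6 genes. No match overlapped another.

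C1q transcripts were lowest with CSF1Ri and highest with the CD40 agonist. C1qb stood at 247, 10.4 and 125 TPM in the combination, 6.86, 4.82 and 21.1 TPM with CSF1Ri, 149, 222 and 419 TPM with the CD40 agonist and 88.8, 72.4 and 102 TPM in Control. Every CSF1Ri library was below every Control library and every CD40 agonist library above it, while the combination libraries lay on both sides of Control. C1qa stood at 113, 2.47 and 28.9 TPM in the combination, 0.103, 1.43 and 8.61 TPM with CSF1Ri, 44.6, 88.6 and 163 TPM with the CD40 agonist and 25.1, 24 and 25.1 TPM in Control. Its Control libraries were close together, and its CSF1Ri libraries were all below them, as was combination replicate 2. C1qc stood at 78, 3.96 and 38.6 TPM in the combination, 1.08, 0 and 6.4 TPM with CSF1Ri, 36.8, 72.6 and 141 TPM with the CD40 agonist and 20, 29.3 and 31.3 TPM in Control. The CSF1Ri library at 0 had no count, which allows up to 0.112 CPM (3 counts; CPM are counts per 1000000 after TMM scaling). All 3 chains had the group order CD40 agonist, combination, Control, CSF1Ri by mean TPM, and neighbours in that order overlapped for the combination on either side.

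**Figure D1:**
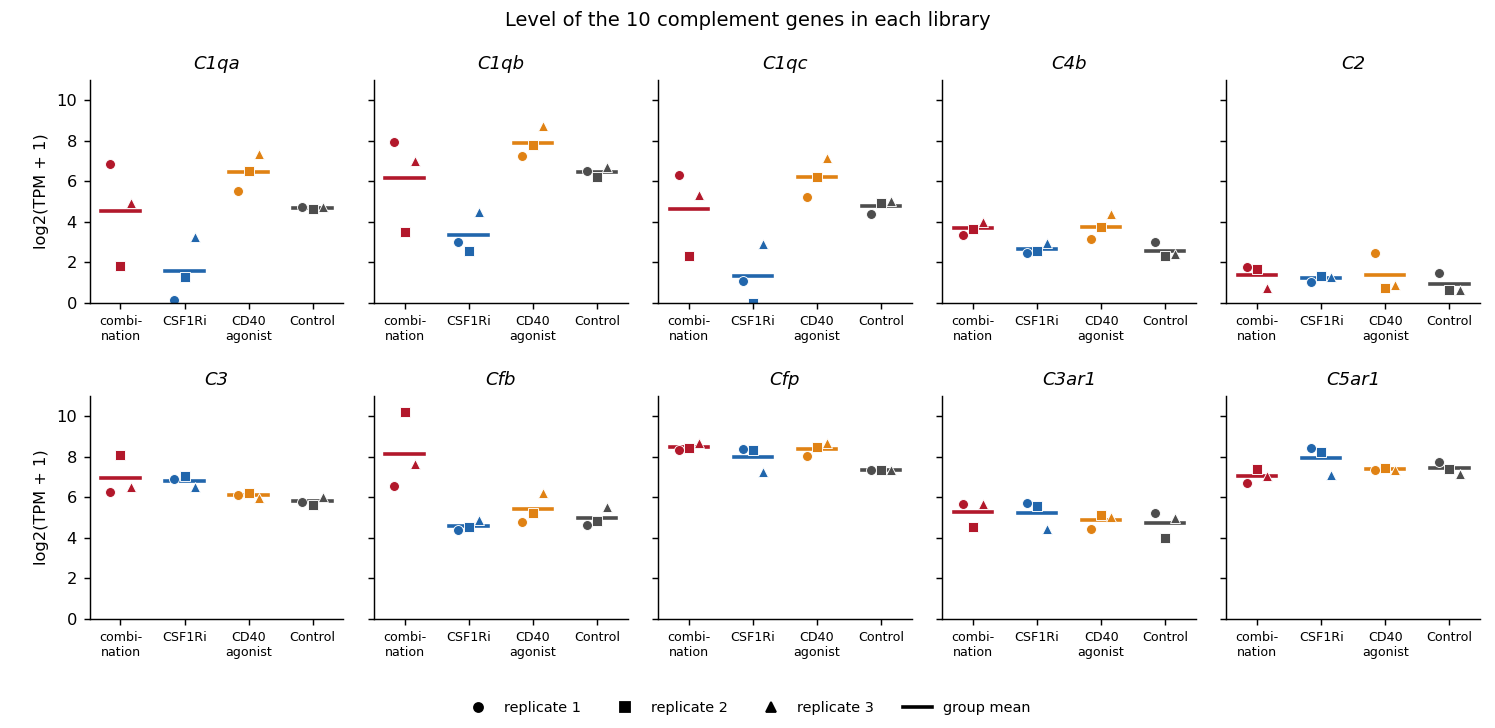
Level of each of the 10 genes as log2(TPM + 1) in the 12 libraries, by group, with symbols for the replicate and a bar for the group mean. The C1q genes are lowest in the CSF1Ri libraries and in combination replicate 2, whose Cfb level of 1210 TPM is the highest of that gene.

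Summed over the chains, C1q came to 438, 16.8 and 193 TPM in the combination, 8.04, 6.25 and 36.1 TPM with CSF1Ri, 231, 383 and 724 TPM with the CD40 agonist and 134, 126 and 158 TPM in Control. C1qb made up most of that sum in each library, at 56.4% to 65% in the combination, 58.4% to 85.3% with CSF1Ri, 57.9% to 64.7% with the CD40 agonist and 57.6% to 66.3% in Control. The sums of the CSF1Ri group rest on few counts in replicates 1 and 2 (169 and 115 counts over all 3 chains), against 2887 to 3278 counts in Control, so the share of a chain is imprecise there. In edgeR's quasi-likelihood test over 16027 genes, the log2 difference of CSF1Ri from Control was -3.01 ± 0.9 for C1qb (SE, adjusted p = 0.306), -2.87 ± 1.27 for C1qa (adjusted p = 0.514) and -3.42 ± 1.23 for C1qc (adjusted p = 0.398). With the CD40 agonist the differences from Control were 1.65 ± 0.85 for C1qb (adjusted p = 0.696), 2.06 ± 1.2 for C1qa (adjusted p = 0.737) and 1.7 ± 1.13 for C1qc (adjusted p = 0.782). No C1q gene passed in either comparison. Without combination replicate 2 and CSF1Ri replicate 3, all 3 C1q genes fell with CSF1Ri relative to Control. Their differences were then -3.90 ± 0.52 for C1qb (edgeR adjusted p = 0.00813), -5.03 ± 1.01 for C1qa (adjusted p = 0.0413) and -5.58 ± 1.03 for C1qc (adjusted p = 0.0309). Leaving out one library at a time called none of them, with edgeR adjusted p from 0.141 to 0.213 without CSF1Ri replicate 3 and from 0.0925 to 0.337 without combination replicate 2. The CD40 agonist differences stayed above the threshold in that fit, with C1qb at 1.65 ± 0.39 (edgeR adjusted p = 0.193). Without CD40 agonist replicate 1 the C1qb difference from Control was 1.95 ± 0.94 (edgeR adjusted p = 0.759).

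In the combination, C1q depended on the library. The differences from Control were 0.71 ± 0.83 for C1qb, 1.14 ± 1.17 for C1qa and 0.75 ± 1.1 for C1qc (edgeR adjusted p = 0.753, 0.714 and 0.81). They turned to -0.26, -0.54 and -0.22 without combination replicate 1. Without combination replicate 2 they were 1.26, 1.70 and 1.29, with edgeR adjusted p between 0.377 and 0.625. Against CSF1Ri, C1qb stood 3.72 ± 0.93 higher in the combination on the log2 scale (edgeR adjusted p = 0.0679), and without combination replicate 2 this passed, at 4.26 ± 0.63 (adjusted p = 0.0142). The widest separation of C1q between any groups was CD40 agonist against CSF1Ri, at 4.66 ± 0.97 for C1qb (edgeR adjusted p = 0.0672), 4.93 ± 1.38 for C1qa (adjusted p = 0.149) and 5.12 ± 1.32 for C1qc (adjusted p = 0.123). In that pair the groups did not overlap for any of the 3 chains, and C1qb passed without combination replicate 2, at 4.66 ± 0.62 (edgeR adjusted p = 0.0105).

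Of the convertase genes, C4b, which encodes the component that C1s cleaves, stood at 9.29, 11.4 and 15.1 TPM in the combination, 4.45, 4.79 and 6.79 TPM with CSF1Ri, 7.84, 12.2 and 20.2 TPM with the CD40 agonist and 7.01, 3.92 and 4.34 TPM in Control. The groups that received the antibody were above those that did not, without overlap in TPM. In CPM the CD40 agonist overlapped Control, because its replicate 1 was at 9 CPM and Control reached 12.7 CPM. The differences from Control were 1.55 ± 0.57 in the combination (edgeR adjusted p = 0.238), -0.25 ± 0.56 with CSF1Ri (adjusted p = 0.968) and 1.4 ± 0.57 with the CD40 agonist (adjusted p = 0.614). A retained-intron transcript, C4b-203, took 42.6% to 63.7% of C4b TPM in the combination, 55.8% to 76.7% with CSF1Ri, 56.9% to 81.4% with the CD40 agonist and 21.4% to 81.9% in Control. C4b has a near-identical neighbour, C4a, which was not analysed here, so its counts are uncertain.

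C2, the protease of the classical convertase, was barely detected, at 8 to 119 counts per library. It stood at 2.35, 2.19 and 0.643 TPM in the combination, 1.06, 1.52 and 1.44 TPM with CSF1Ri, 4.44, 0.68 and 0.832 TPM with the CD40 agonist and 1.76, 0.55 and 0.556 TPM in Control. All groups overlapped, so the order of their means was within the spread of the libraries. The non-coding transcript C2-203 was the sole source of C2 TPM in 8 of the 12 libraries. On protein-coding transcripts alone, the log2 difference of the CD40 agonist from Control was -2.10 ± 2.37 (edgeR adjusted p = 0.907), against 0.19 ± 0.99 over all transcripts (adjusted p = 0.984). Without CD40 agonist replicate 1, the library with the most C2, the difference over all transcripts was -0.79 ± 1.09 (edgeR adjusted p = 0.941).

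C3, whose cleavage every complement route shares, stood at 76.8, 272 and 91.7 TPM in the combination, 119, 132 and 89.7 TPM with CSF1Ri, 69.1, 73.4 and 60.8 TPM with the CD40 agonist and 53.5, 47.5 and 64.1 TPM in Control. Both groups given CSF1Ri were above Control in every library, and the CD40 agonist overlapped Control. The difference from Control was 1.56 ± 0.46 in the combination (edgeR adjusted p = 0.153) and 0.95 ± 0.45 with CSF1Ri (adjusted p = 0.54). Without combination replicate 2, the highest library, that group's difference from Control was 0.58 ± 0.19 (edgeR adjusted p = 0.214). Without both that library and CSF1Ri replicate 3, C3 rose with CSF1Ri relative to Control by 1.11 ± 0.15 (edgeR adjusted p = 0.00855). The combination then stood 0.53 below CSF1Ri on the log2 scale (difference -0.53 ± 0.17, edgeR adjusted p = 0.123), where all libraries gave 0.61 ± 0.45 (adjusted p = 0.506). The coding transcripts C3-201 and C3-203 held all of its TPM, with C3-201 at 43.9% to 50.8% in the combination, 45.7% to 50.2% with CSF1Ri, 41.6% to 51.2% with the CD40 agonist and 48.6% to 53.5% in Control.

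Cfb, the protease of the alternative convertase, had the largest difference of the 10 genes between the combination and Control. It stood at 94.7, 1210 and 201 TPM in the combination, 19.7, 22.2 and 28.1 TPM with CSF1Ri, 26.5, 37.1 and 74 TPM with the CD40 agonist and 23.8, 27.8 and 44.7 TPM in Control. Every combination library was above every library of the other groups, and the other groups overlapped each other. Cfb rose in the combination relative to CSF1Ri by 4.63 ± 0.89 on the log2 scale (edgeR adjusted p = 0.0311). Relative to Control the difference was 4.31 ± 0.88 (edgeR adjusted p = 0.0538), and relative to the CD40 agonist 3.67 ± 0.85 (adjusted p = 0.239), neither of which passed. Combination replicate 2 moved the size of these values. Without it Cfb rose relative to Control by 2.36 ± 0.44 (edgeR adjusted p = 0.0422) and relative to CSF1Ri by 2.68 ± 0.44 (adjusted p = 0.0195). Without combination replicate 1 the difference from Control also passed, at 4.81 ± 0.72 (edgeR adjusted p = 0.031). The call against CSF1Ri was lost without any of the 3 Control libraries, any of the 3 CSF1Ri libraries or CD40 agonist replicate 2 (edgeR adjusted p = 0.0529 to 0.125), and over all 22 alternatives adjusted p ran from 4.74e-06 to 0.155. Cfb was also the member called in the test of any difference among the 4 groups (edgeR adjusted p = 0.0306). Its interaction term, which asks whether the effects of both agents add up on the log2 scale, was 3.98 ± 1.13 (edgeR adjusted p = 0.418) and did not pass. The interaction was 2.04 ± 0.58 without combination replicate 2 (edgeR adjusted p = 0.321), and the difference from the CD40 agonist was then 1.72 ± 0.43 (adjusted p = 0.295).

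Cfp, which encodes properdin, was higher in all but one treated library than in Control. It stood at 323, 349 and 418 TPM in the combination, 338, 318 and 152 TPM with CSF1Ri, 262, 358 and 407 TPM with the CD40 agonist and 160, 163 and 160 TPM in Control. All combination and CD40 agonist libraries were above all Control libraries, as were CSF1Ri replicates 1 and 2, but not CSF1Ri replicate 3. Cfp rose in the combination relative to Control by 1.35 ± 0.25 on the log2 scale (edgeR adjusted p = 0.039). The difference of the CD40 agonist from Control was 1.18 ± 0.25 (edgeR adjusted p = 0.31) and that of CSF1Ri 0.64 ± 0.25 (adjusted p = 0.461). Without combination replicate 2 and CSF1Ri replicate 3 the difference from Control passed in each treated group, at 1.35 ± 0.16 in the combination (edgeR adjusted p = 0.0085), 0.91 ± 0.16 with CSF1Ri (adjusted p = 0.028) and 1.18 ± 0.15 with the CD40 agonist (adjusted p = 0.0221). The call in the combination was lost with any of 9 libraries left out in turn (edgeR adjusted p = 0.0603 to 0.168) and was kept without CD40 agonist replicate 1, CSF1Ri replicate 1 or CSF1Ri replicate 3. The log2 difference itself stayed between 1.30 and 1.41 in those fits, and over all 22 alternatives adjusted p ran from 4.15e-05 to 0.168. Without CSF1Ri replicate 3 alone, Cfp also rose relative to Control with CSF1Ri, by 0.90 ± 0.17 (edgeR adjusted p = 0.0492), and with the CD40 agonist, by 1.18 ± 0.15 (adjusted p = 0.0402). A non-coding transcript, Cfp-202, held 2.02% to 4.75% of Cfp TPM in the combination, 7.88% to 15.7% with CSF1Ri, 0.615% to 4.32% with the CD40 agonist and 2.17% to 6.43% in Control. On coding transcripts alone the combination difference was 1.35 ± 0.25 (edgeR adjusted p = 0.0379).

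**Figure D2:**
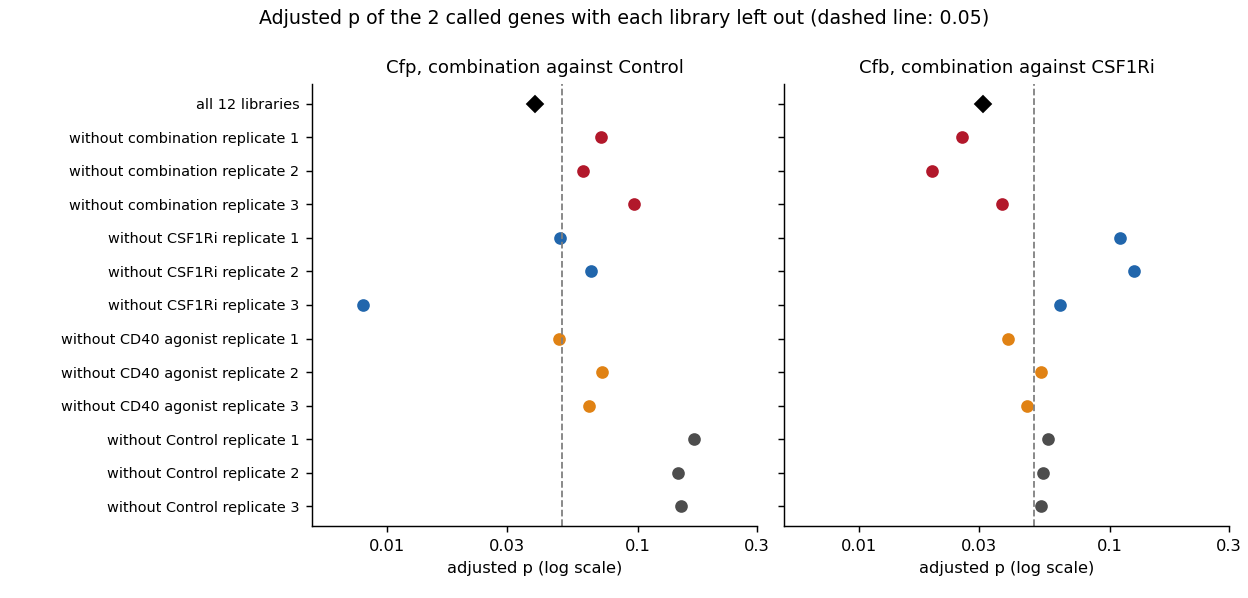
Adjusted p (log axis) of Cfp in the combination against Control and of Cfb in the combination against CSF1Ri, with all 12 libraries (diamond) and with each library left out in turn (circles, coloured by group). With all libraries the values are 0.039 and 0.0311, and several points of each gene lie right of the dashed line at 0.05.

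The anaphylatoxin receptors were the members whose highest and lowest group means differed least, by 1.48-fold for C3ar1 and 1.94-fold for C5ar1. C3ar1 stood at 50.3, 22.2 and 50.2 TPM in the combination, 51, 46.5 and 20.9 TPM with CSF1Ri, 20.8, 33.8 and 31.9 TPM with the CD40 agonist and 37.1, 14.8 and 30.9 TPM in Control. Each group overlapped each other group. C5ar1 stood at 103, 169 and 130 TPM in the combination, 345, 300 and 136 TPM with CSF1Ri, 160, 175 and 165 TPM with the CD40 agonist and 213, 167 and 143 TPM in Control. Its order by mean was CSF1Ri, Control, CD40 agonist, combination, so that CSF1Ri, lowest for C1q, was highest here, and all neighbours overlapped. The CSF1Ri difference from Control was 0.58 ± 0.31 (edgeR adjusted p = 0.605). Without combination replicate 2 and CSF1Ri replicate 3, C5ar1 rose with CSF1Ri relative to Control by 0.89 ± 0.16 (edgeR adjusted p = 0.0298), which no single library left out gave (adjusted p = 0.14 without CSF1Ri replicate 3 and 0.512 without combination replicate 2). In the same fit C5ar1 in the combination fell by 1.36 ± 0.19 relative to CSF1Ri (adjusted p = 0.00825). The fall passed without CSF1Ri replicate 3 alone as well (-1.10 ± 0.22, edgeR adjusted p = 0.0398), against -0.79 ± 0.32 with all libraries (adjusted p = 0.217).

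**Figure D3:**
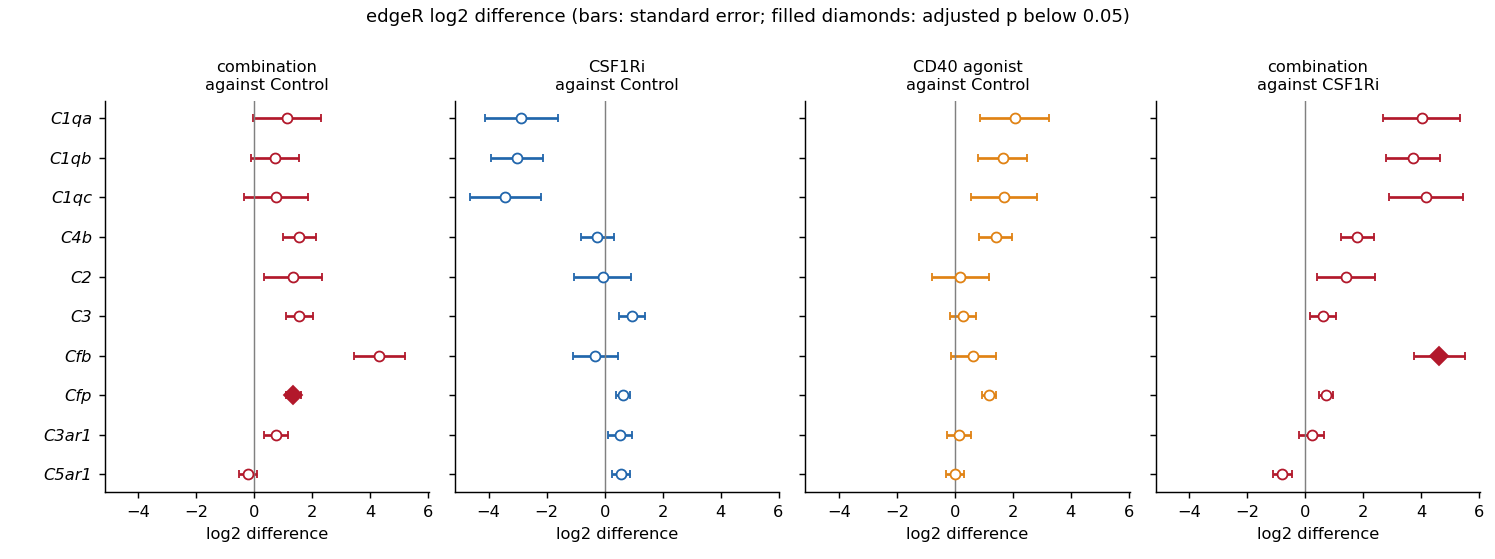
edgeR log2 differences of the 10 genes (rows) in 4 comparisons (panels), with standard errors as bars and filled diamonds for an adjusted p below 0.05. Cfp in the combination against Control (1.35) and Cfb in the combination against CSF1Ri (4.63) are filled, and the C1q genes lie left of 0 for CSF1Ri against Control.

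All 10 genes passed the filter on low counts. In the combination against Control, 1 of 10 was called (Cfp, higher), where 0.774% of all tested genes were called, and 9 of 10 differences were positive with a median of 1.24, beside a median of 0 over all genes. In CPM, 4 of 10 genes (C4b, C3, Cfb and Cfp) were higher in every combination library than in every Control library, as were 10.8% of all genes. Against CSF1Ri, the combination had 1 of 10 called (Cfb, higher) beside 1.94% of all genes, the median was 1.6 beside 0.02, and C4b, Cfb and Cfp did not overlap, as did 10.8% of all genes in that direction. For Cfp this holds in CPM and not in TPM, where CSF1Ri replicate 1 (338) exceeded combination replicate 1 (323). Between the combination and the CD40 agonist, edgeR called 0 of 10 members and 0% of all genes, with 2 members and 1450 genes at an unadjusted p below 0.05. DESeq2 called Cfb and 275 genes there, limma voom no member and 7 genes, and Cfb alone did not overlap, beside 6.6% of all genes.

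For CSF1Ri against Control edgeR called 0 of 10 members, beside 0.0125% of all genes. Of the 10 members, 4 had an unadjusted p below 0.05, as did 1517 of all genes. DESeq2 called C1qb and 408 genes, and limma voom none of either. The median difference of the members was -0.16, beside -0.01 over all genes. C3 was higher in every CSF1Ri library, as were 7.23% of genes, and the 3 C1q genes were lower in every one, as were 8.55%. For the CD40 agonist against Control edgeR called 0 of 10 members and 0% of all genes, with 2 members and 1231 genes at an unadjusted p below 0.05. DESeq2 called Cfp and 194 genes, and limma voom no member and 5 genes. All 10 differences were positive, with a median of 0.91 beside 0.01, and the C1q genes and Cfp were higher in every CD40 agonist library, as were 8.34% of genes. For the CD40 agonist against CSF1Ri edgeR called 0 of 10 beside 0.387% of all genes. There 4 members and 2247 of all genes had an unadjusted p below 0.05. DESeq2 called the 3 C1q genes and C4b among 963 genes, and limma voom no member and 54 genes. The C1q genes were higher without overlap in that pair (11.2% of all genes were) and C3 was lower without overlap (10.1%). The interaction of both agents was called for 0 of 10 members and 0% of genes by edgeR, with 1 member and 1305 genes at an unadjusted p below 0.05, while DESeq2 called no member and 178 genes and limma voom none of either. Any difference among the 4 groups was called for 1 of 10, beside 1.2% of all genes. The comparisons against Control share the Control libraries and those against CSF1Ri share the CSF1Ri libraries.

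Leaving out combination replicate 2 and CSF1Ri replicate 3 raised these counts for the members and for all genes. In the combination against Control, edgeR then called 2 of 10 (Cfb and Cfp) beside 1.39% of genes. With CSF1Ri against Control it called 6 of 10, the 3 C1q genes lower and C3, Cfp and C5ar1 higher, beside 2.03%. With the CD40 agonist against Control it called 1 of 10 (Cfp) beside 0.228%. In the combination against CSF1Ri it called 5 of 10, the 3 C1q genes and Cfb higher and C5ar1 lower, beside 3.8%. With the CD40 agonist against CSF1Ri it called 5 of 10 (the C1q genes, C3 and C5ar1) beside 3.01%. These fits leave 2 libraries in the combination and in CSF1Ri. Both libraries left out were singled out from these same data, and CD40 agonist replicate 1, which also stood apart, was kept. In its group, CSF1Ri replicate 3 was nearest to Control for C1q, C3, Cfp and C5ar1. Leaving it out therefore widens those differences from Control by choice, and the added calls are no independent support.

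To set the classical pathway against the alternative one, the mean log2(TPM + 1) of Cfb and Cfp was subtracted from that of the C1q genes in each library. The value was -0.43, -6.8 and -2.45 in the combination, -5, -5.15 and -2.52 with CSF1Ri, -0.42, -0.04 and 0.29 with the CD40 agonist and -0.79, -0.85 and -0.95 in Control. The group means were -3.23 ± 3.26 in the combination, -4.22 ± 1.47 with CSF1Ri, -0.05 ± 0.35 with the CD40 agonist and -0.86 ± 0.08 in Control (SD, n = 3 each). All CSF1Ri libraries lay below Control and all CD40 agonist libraries above it, while the combination spanned the range. As a second yardstick, the mean of the 14 macrophage markers was subtracted from the C1q mean. That value was 0.19, -3.62 and -0.91 in the combination, -5.18, -5.34 and -2.77 with CSF1Ri, -0.82, -0.32 and 0.53 with the CD40 agonist and -1.75, -1.67 and -1.38 in Control. The CSF1Ri libraries and combination replicate 2 again lay below all Control libraries, and every other treated library lay above them. The combination mean exceeded the Control mean by 0.15, and this difference was -0.66 without combination replicate 1, -0.11 without combination replicate 3 and 1.24 without combination replicate 2.

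**Figure D4:**
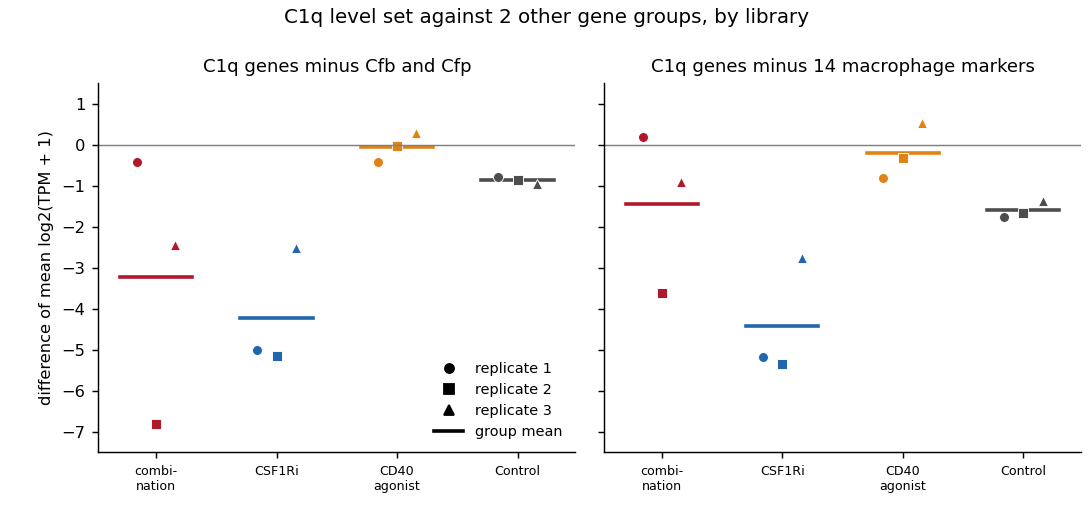
Mean log2(TPM + 1) of the C1q genes minus that of Cfb and Cfp (left) and minus that of 14 macrophage markers (right), by group and library, with bars for group means. The CSF1Ri libraries lie between -5.15 and -2.52 on the left and the Control libraries between -0.95 and -0.79.

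Of 48 further complement genes, 32 passed the filter on low counts, and edgeR called 1 of them in the combination against Control, where 0.774% of all genes were called. That gene was Lrp1, a scavenger receptor reported to take part in the uptake of C1q-coated material. It stood at 99.5, 98.4 and 101 TPM in the combination, 165, 176 and 153 TPM with CSF1Ri, 128, 120 and 97.9 TPM with the CD40 agonist and 190, 200 and 196 TPM in Control. Lrp1 fell in the combination relative to Control by -0.66 ± 0.12 (edgeR adjusted p = 0.0367). With the CD40 agonist its difference from Control was -0.53 ± 0.12 (edgeR adjusted p = 0.35). In the test of any difference among the 4 groups Lrp1 did not pass (edgeR adjusted p = 0.0537). How its call changes with other settings or with a library left out was not examined. Of the other receptors, Itgb2, the shared chain of complement receptors 3 and 4, averaged 482 ± 180 TPM in the combination, 562 ± 93.3 TPM with CSF1Ri, 499 ± 59.1 TPM with the CD40 agonist and 519 ± 50.8 TPM in Control (SD, n = 3 each). Calr, a chaperone that can bind C1q at the cell surface, ran from 233 to 443 TPM over the 12 libraries. Median differences of the tested genes between the combination and Control were -0.42 over 10 receptors, -0.57 over 10 regulators, -1.25 over 4 terminal pathway genes and 1.99 over 7 genes of classical and lectin initiation, beside 0 over all genes. The value of 1.99 was that of C1rb, which averaged 0.264 TPM. Its list ran from -3.09 for Fcna to 7.51 for Colec11, which was at 0 in all Control libraries. No initiation or terminal gene was called, and many were near the floor. Cr1l, known as Crry, a membrane regulator of mouse cells, ran from 91.9 to 137 TPM, Clu, a fluid regulator, from 3.67 to 135 TPM and Cd59a, an inhibitor of the membrane attack complex, from 4.28 to 16.5 TPM. Cfd, the protease that activates factor B, reached 2.08 TPM in the combination and was listed at 0 in the other groups, and Cfi was listed at 0 throughout. Terminal pathway genes were low, with C8g, the most abundant, at 0.142 to 5.94 TPM, Hc, which encodes C5, at up to 6.27 TPM and C6 at up to 4.12 TPM. Among the lectin pathway genes, the ficolin gene Fcnb averaged 12.6 ± 6.02 TPM in the combination, 1.55 ± 1.49 TPM with CSF1Ri, 2.66 ± 2.48 TPM with the CD40 agonist and 0.912 ± 0.997 TPM in Control, a difference from Control of 3.87 ± 1.68 in the combination (edgeR adjusted p = 0.317). The other ficolin gene, Fcna, averaged 1.27 ± 1.37 TPM in the combination, 1.2 ± 1.89 TPM with CSF1Ri, 13.8 ± 15.1 TPM with the CD40 agonist and 11.9 ± 2.77 TPM in Control, and the combination differed from Control by -3.09 ± 2.03 (edgeR adjusted p = 0.517). Colec12, a scavenger receptor of the collectin family, averaged 8.64 ± 6.2 TPM in the combination, 16.8 ± 0.57 TPM with CSF1Ri, 15.2 ± 1.22 TPM with the CD40 agonist and 16.7 ± 3.43 TPM in Control, and the combination differed from Control by -0.8 ± 0.47 (edgeR adjusted p = 0.473).

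Markers of other cells moved with some of these results. Dendritic cell markers (10 genes) summed to 219 to 995 TPM in the combination, 450 to 976 TPM with CSF1Ri, 699 to 869 TPM with the CD40 agonist and 729 to 942 TPM in Control, and the lowest was combination replicate 2, in which C1q was also low. Monocyte markers (10 genes) summed to 3680 to 13800 TPM in the combination, 5930 to 6360 TPM with CSF1Ri, 3860 to 4440 TPM with the CD40 agonist and 5130 to 5620 TPM in Control, and the highest was again combination replicate 2, where Cfb and C3 were highest. Melanocyte and melanoma markers (8 genes) summed to 19.3 to 102 TPM in the combination, 5.56 to 9.23 TPM with CSF1Ri, 25.8 to 28.6 TPM with the CD40 agonist and 17.3 to 21.7 TPM in Control. Like C1q, these sums were below every Control library with CSF1Ri and above every Control library with the CD40 agonist. In the combination they were 102, 19.3 and 40.5 TPM, the replicate order of the C1q sums. By contrast, CSF1Ri replicate 3 had the lowest sum of its group and the highest C1q. By mean log2(TPM + 1), CD40 agonist replicate 1 (1.0) was below Control (1.26 to 1.48). Mlana, Sox10, Tyrp1 and Slc45a2 were at 0 in all CSF1Ri libraries. Sox10 and Slc45a2 were at 0 in all Control libraries too, and Slc45a2 in all CD40 agonist libraries. Neutrophil markers (13 genes) summed to 1560 to 4570 TPM in the combination, 1550 to 7780 TPM with CSF1Ri, 641 to 964 TPM with the CD40 agonist and 1230 to 3230 TPM in Control. Mast cell, basophil and eosinophil markers (11 genes) summed to 380 to 704 TPM in the combination, 530 to 812 TPM with CSF1Ri, 169 to 402 TPM with the CD40 agonist and 155 to 212 TPM in Control. B cell markers (7 genes) summed to 87.1 to 167 TPM in the combination, 139 to 179 TPM with CSF1Ri, 270 to 326 TPM with the CD40 agonist and 252 to 284 TPM in Control, so that they were lower with CSF1Ri than in Control in every library, as C1q was. The 6 tested B cell markers had differences below 0 for CSF1Ri against Control and above 0 for the CD40 agonist against Control. In the combination the B cell sums were also below every Control library and all 6 differences below 0, whereas C1q lay on both sides of Control. NK cell markers (8 genes) summed to 1000 to 1600 TPM in the combination, 582 to 834 TPM with CSF1Ri, 980 to 1880 TPM with the CD40 agonist and 787 to 1110 TPM in Control, and 8 of 8 differences were below 0 for CSF1Ri against Control and 7 of 8 above 0 for the CD40 agonist against Control. T cell markers (8 genes) summed to 36.2 to 60.1 TPM in the combination, 44.9 to 58.2 TPM with CSF1Ri, 80.5 to 142 TPM with the CD40 agonist and 88.9 to 129 TPM in Control. These sums were below every Control library in both groups given CSF1Ri. Erythroid markers (7 genes) summed to 34.9 to 786 TPM in the combination, 635 to 1600 TPM with CSF1Ri, 364 to 534 TPM with the CD40 agonist and 1280 to 1880 TPM in Control, and were below Control without overlap in the combination and with the CD40 agonist, where Cfp was above it. Fibroblast markers (10 genes) and endothelial markers (7 genes) summed to at most 86.2 and 53.8 TPM in any library. Dissociation and stress genes summed to 3780 to 4430 TPM in the combination, 2290 to 3950 TPM with CSF1Ri, 3200 to 3670 TPM with the CD40 agonist and 2200 to 2550 TPM in Control. By replicate the CSF1Ri sums were 3950, 3430 and 2290 TPM. Every treated library but CSF1Ri replicate 3 was above all Control libraries, as for Cfp. Within the combination and the CD40 agonist, the replicates ranked in the reverse order of Cfp. In the comparison that called Cfp, edgeR also called 5 of 16 dissociation and stress genes higher (Atf3, Jun, Junb, Fos and Fosb), the mast cell and basophil genes Cpa3, Fcer1a and Mcpt8 higher, and Ace, Cd300e, Retnlg and Ms4a1 lower. In the comparison that called Cfb, it called Atf3, Jun, Gzma, Klrk1, Aif1 and Irf8 higher and Il5ra, Ccr3, Ear6 and Retnlg lower. The part of these cells and of tissue handling in the complement results was not tested.

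Genes whose level followed the members most closely over the 12 libraries were ranked by Pearson's r of log2 CPM among 8318 genes with a mean of at least 10 CPM. These are descriptions across libraries that share their groups, and carry no test. Nearest to the C1q mean were Tmem37 (r = 0.947), Cd207, which encodes langerin of Langerhans cells (r = 0.944), and Epcam, an adhesion gene of epithelia and Langerhans cells (r = 0.943). Cd207 ran from 0.108 to 15.4 TPM in the combination, 0 to 1.69 TPM with CSF1Ri, 51.4 to 122 TPM with the CD40 agonist and 3.61 to 7.13 TPM in Control, so its CD40 agonist libraries stood clear of all others. Epcam ran from 0.55 to 17 TPM in the combination, 0.0241 to 1.44 TPM with CSF1Ri, 21 to 33.6 TPM with the CD40 agonist and 2.28 to 6.11 TPM in Control. Their part in the C1q levels was not tested. Nearest to Cfb were Gbp2, an interferon-induced GTPase (r = 0.963), Il2rg, the shared cytokine receptor chain (r = 0.953), and Gm10108 (r = 0.952). Nearest to C3 were Dram1 (r = 0.95), Casp4 (r = 0.946) and Prdx5 (r = 0.945). Cfb and C3 were both highest in combination replicate 2, so that library can weigh much on these r values. In the combination, the highest and median TPM were 773 and 270 for Gbp2 and 169 and 39.7 for Dram1. They lay closer for Gm10108, at 269 and 179 TPM. Cfp was nearest to the chemokine gene Ccl2 (r = 0.94), Lztfl1 (r = 0.931) and Ppp1r15a (r = 0.922). Ccl2 ran from 289 to 343 TPM in the combination, 54.4 to 349 TPM with CSF1Ri, 230 to 311 TPM with the CD40 agonist and 70.9 to 107 TPM in Control. C4b was nearest to Fen1 (r = 0.906), Dynlt1a (r = 0.9) and Hsp90b1 (r = 0.896), and C2, with few counts, to Dcun1d3 (r = 0.878), Nudt21 (r = 0.825) and Pet100 (r = 0.823). C5ar1 was nearest to Cnot6l (r = 0.945), Rbm34 (r = 0.933) and the myeloid lectin gene Clec4d (r = 0.932). C3ar1 was nearest to the cytokine gene Il1a (r = 0.863), Smad7 (r = 0.863) and Prkacb (r = 0.858).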

How the data were processed

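Per the labels' protocols, tumor cell suspensions were made with collagenase, cleared of red cells and of dead cells, and turned into libraries without strand information from total RNA with an ultra-low input kit. The same protocols name alignment to mm10 by STAR, counting by HTSeq and testing by DESeq2. Each file deposited by the authors instead lists, per its header, an estimated count per transcript, with no normalization, and a TPM value. The quantifier's name was not given in the sources used here. Of 111462 transcripts, 110203 (98.9%) matched GENCODE M21 and the rest, 0.378% to 0.436% of counts, were left out. Counts and TPM were summed per gene, and counts were rounded to whole numbers. Part of the mouse genotype and 1 gene of the lists are not reported here.

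All 12 libraries entered one edgeR 4.0.16 fit (R 4.3.3) with a term per group, TMM scaling, a filterByExpr filter that left 16027 genes, and the robust quasi-likelihood test, with 8 residual degrees of freedom. Calls are Benjamini-Hochberg adjusted p below 0.05 over all tested genes, and no p was adjusted over the members alone. DESeq2 1.42.0, limma 3.58.1 (voom) and edgeR's bias-adjusted form were alternatives, with others named in the closing section. The members, gene lists and motifs were chosen with earlier results of these data known. Named genes are all members, other complement genes that were called or among the 3 most abundant of their list, markers called where a member was called, and the 3 genes most like each member. TPM scores use a pseudocount of 1. The floor of 3 counts covers counting error only, since reads carry no molecular identifiers.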

Additional observations from a re-analysis of the deposited data

How the results depend on the processing

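Counts of members called moved with the test. With DESeq2 they were 3 in the combination against Control (933 of all genes), 1 in CSF1Ri against Control (408) and 1 in the CD40 agonist against Control (194). They were 5 in the combination against CSF1Ri (1486), 1 in the combination against the CD40 agonist (275), 4 in the CD40 agonist against CSF1Ri (963) and 5 for any difference (1692). The main edgeR fit called 124, 2, 0, 311, 0, 62 and 193 of all genes in that order, so calls over all genes rose too. With limma voom 0 were called in the combination against CSF1Ri (286 of all genes) and 0 for any difference (184). With bias-adjusted edgeR the counts were 2 in the combination against Control (282 of all genes) and 2 in the combination against CSF1Ri (524). They were 1 in the CD40 agonist against CSF1Ri (135) and 2 for any difference (411). For the settings that follow, only member counts are given here. With the replicate number as a block they were 0 in the combination against Control, 0 in the combination against CSF1Ri and 0 for any difference. Over all tested genes, same-numbered deviations from the group means correlated at -0.06 to 0.06 in 18 pairs. This cannot show whether same-numbered libraries share a batch, since one that affects only some genes would hardly move it. On the 6 libraries of the groups compared they were 1 in the CD40 agonist against Control, 0 in the combination against CSF1Ri and 1 in the CD40 agonist against CSF1Ri. Without combination replicate 2 and CSF1Ri replicate 3 they were 2 in the combination against Control, 6 in CSF1Ri against Control, 1 in the CD40 agonist against Control, 5 in the combination against CSF1Ri, 5 in the CD40 agonist against CSF1Ri and 7 for any difference. Leaving out each library in turn gave 0 to 1 in the combination against Control, 0 to 1 in CSF1Ri against Control, 0 to 1 in the CD40 agonist against Control, 0 to 2 in the combination against CSF1Ri, 0 to 1 in the CD40 agonist against CSF1Ri and 0 to 2 for any difference.

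The sign of a log2 difference turned in 21 of 1140 results and settings for single members, none of them called. These cover all members in the comparisons against Control and in the combination against CSF1Ri. In the remaining comparisons and the interaction they cover only the C1q genes and Cfb. In the combination against Control, C1qb was -0.03 with limma voom. In CSF1Ri against Control, C2 was 0.40 with limma voom and 0.61 with the replicate block, and without one library C2 ran from -0.48 to 1.29 and C4b from -0.60 to 0.05. In the CD40 agonist against Control, C2 was -2.10 on coding transcripts, an alternative chosen after seeing the data, and without one library C2 ran from -0.79 to 1.57, C3ar1 from -0.14 to 0.43 and C5ar1 from -0.12 to 0.18. In the combination against CSF1Ri, C3 was -0.53 without combination replicate 2 and CSF1Ri replicate 3, and without one library C3 ran from -0.36 to 0.95 and C3ar1 from -0.08 to 0.50. Without one library the C1q genes in the combination against Control ran from -0.54 to 1.70 for C1qa, -0.26 to 1.26 for C1qb and -0.22 to 1.29 for C1qc. The cause was not tested. The other settings were DESeq2's size factors in edgeR, no filter on low counts and adding the counts of genes that share sequence. None of these moved a count of members called by over 1.5 times. The last is no check on shared sequence, since it added 2 counts to Cfb over all libraries and none to C4b. For the C1q scores, the difference from Control kept its sign under another pseudocount, log2 CPM and other gene lists. With each library left out in turn it kept its sign except for C1q minus macrophage markers in the combination, which ran from -0.66 to 1.24. Pooled samples in groups of 3, with a common coefficient of variation of 61%, limit what these tests can call.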
